A study of Mus musculus with 4 samples.

Results

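The genes described here carry glucose to lactate or set and follow the cell's response to low oxygen. Of 34 genes named for this module, 31 were read by at least 1 probe set that the platform annotation assigns to a single gene. They are 31 of 18194 genes read in this way. The probe set with the highest mean signal over the 4 arrays stood for each gene. Eno1 and Gpi1 were not analysed here, and Bnip3l was left out because its 3 probe sets are shared with Bnip3l-ps. Gapdh was read by the array's own 3 control probe sets.

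RNA came from 4 cultures of purified p53-/- mouse fetal liver progenitor cells, each measured on 1 array. One culture was non-transformed, and the others were transformed with H-RasV12, a constitutively active form of the GTPase H-Ras, with myr-Akt, a form of AKT1 that a myristoyl group anchors to membranes, or with c-Myc, a transcription factor. Loss of p53 is common to all 4 cultures, the non-transformed one included, as is a medium containing serum (10%), the growth factors EGF (20 ng/ml) and HGF (50 ng/ml), dexamethasone and an insulin-containing supplement. The sources used here do not say how the oncogenes were introduced, whether a culture was 1 clone, or what oxygen and glucose the cells had. Signals are linear MAS5 intensities, and a signal under 100.001 (20% of the common trimmed mean of the arrays) was set to that floor, below which values have no order. With 1 array per culture no spread between replicates and no test can be had, so every difference below is between arrays, and "higher" and "lower" describe these arrays alone.

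As a measure of RNA quality, signal at the 5′ end divided by that at the 3′ end was 0.846 to 0.907 for the beta-actin control and 1.24 to 1.29 for the Gapdh control. Myc gave signals of 2285 in non-transformed cells, 1747 and 639.7 on the H-RasV12 and myr-Akt arrays and 420.6 on the array labelled c-Myc, lowest where the label names it. The sources used here do not say whether its probe set can detect the introduced sequence, and directions given for that array depend on its label. Akt1 gave 1870.1, 2760.3, 2834 and 2991 in the same order, and Hras was not analysed here. Of 22 liver progenitor and hepatoblast markers, 13 were above the floor in non-transformed cells, 17 on the H-RasV12 array, 9 on the myr-Akt array and 8 on the array labelled c-Myc. The progenitor genes Krt19 and Foxa2 were above the floor everywhere, while Alb and Afp, the main secreted proteins of adult and fetal hepatocytes, were above it on the H-RasV12 array alone. Other markers of this list, Krt8, Sox9, Cdh1 and Apoa1, were above the floor in non-transformed and H-RasV12 cells and under it on the other arrays. Further markers of the list went other ways over the non-transformed, H-RasV12, myr-Akt and c-Myc-labelled arrays. Gpc3 gave 3575.6, 311.6, 1889.5 and 3904, Krt7 1620.5, 506.9, 445.3 and 1566.3, and Dlk1 116.7, 262.4, 145.1 and 1898. The summed signal of 14 stellate and fibroblast markers was 133376, 90826, 80737 and 67798 on the non-transformed, H-RasV12, myr-Akt and c-Myc-labelled arrays. Within it Vim and Thy1 were higher on the H-RasV12 array than in non-transformed cells. For 6 mesothelial markers the summed signal was 37689, 7368, 33885 and 31737 on those arrays in the same order. Single markers of this sum moved apart, with Msln at 7836.5, 3095.6, 238.3 and 348.0 and Gpm6a at 4314, 267.9, 6812 and 7852. All 8 endothelial markers but Flt1 and all 10 blood markers but Epor, Cd68, Csf1r and Cd34 were at the floor on every array. These shifts move with the arrays compared below, and their part in the results was not tested. In RNA of a whole culture, fewer cells of a type and less RNA per cell cannot be told apart.

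Glycolysis splits glucose into pyruvate in the cytosol. Lactate dehydrogenase turns pyruvate into lactate, which leaves the cell through monocarboxylate transporters. Pyruvate that enters the mitochondria can instead be used by pyruvate dehydrogenase. Most steps are run by several isoforms from separate genes with different kinetics and tissue patterns. At low oxygen the transcription factor HIF-1, whose alpha subunit is otherwise hydroxylated by EGLN enzymes and destroyed, raises many of these genes. MYC also binds many of them at CACGTG boxes, and AKT acts on glucose uptake and hexokinase largely after transcription.

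The widest ranges over the 4 arrays were those of Hk1 (13.4-fold), Pfkfb4 (8.06-fold), Aldoc (7.31-fold) and Slc2a3 (5.04-fold). Ranges under 1.5-fold were found for 12 members, namely Aldoa, Tpi1, Gapdh, Pgk1, Pgam1, Pkm, Ldha, Slc2a1, Pfkm, Pfkp, Pdk3 and Car9, the last near the floor. Over the 4 arrays, 15 of 31 members (48.4%) had a highest signal at least 2-fold above the lowest, against 28.1% of the 10680 measured genes, those above the floor somewhere. The median range was close to that of those genes, at 1.60-fold against 1.58-fold. On the H-RasV12 array, 0 members were at least 2-fold higher than in non-transformed cells and 7 were lower (22.6%), where 2.08% of all measured genes were higher and 6.27% lower. On the myr-Akt array 2 members were higher (6.45%) and 7 lower (22.6%), beside 4.9% and 12.7% of all measured genes. For the array labelled c-Myc the counts were 2 higher (6.45%) and 8 lower (25.8%), beside 4.42% and 11.3%. These 3 comparisons share the non-transformed array. The members were chosen with earlier results of these data known, so their shares beside all measured genes are a description.

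Median log2 differences of the members from non-transformed cells were small, at -0.02 for H-RasV12, -0.12 for myr-Akt and -0.25 for the array labelled c-Myc, against 0.00, -0.02 and 0.00 for all measured genes. Scaling the arrays to a common median signal in place of a trimmed mean raised the median of all measured genes by 0.09, 0.25 and 0.31 in these comparisons. Counts of higher and lower members were then 0 and 4 for H-RasV12, beside 2.64% and 5.18% of all measured genes. They were 3 and 4 for myr-Akt (9.68% and 12.9%), beside 12.2% and 8.86%, and 2 and 4 for the array labelled c-Myc (6.45% and 12.9%), beside 13.2% and 7.66%. The share of lower members thus stood closer to that of all genes under this scaling. Members at least 2-fold different under every alternative that could be run for them were Slc2a3, Ldhb and Ndrg1 for H-RasV12, Slc2a3, Hk1, Pfkfb4, Pdk1 and Aldoc for myr-Akt, and Hk1, Pfkfb4, Bnip3 and Aldoc for the array labelled c-Myc. The other 4, 4 and 6 members called in these comparisons missed 2-fold under at least 1 alternative. Not every alternative could be run for those kept. Slc2a3 had no probe set above the floor once _s_at and _x_at probe sets were left out. Pfkfb4, Bnip3 and Aldoc had no second probe set above the floor.

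**Figure D1:**
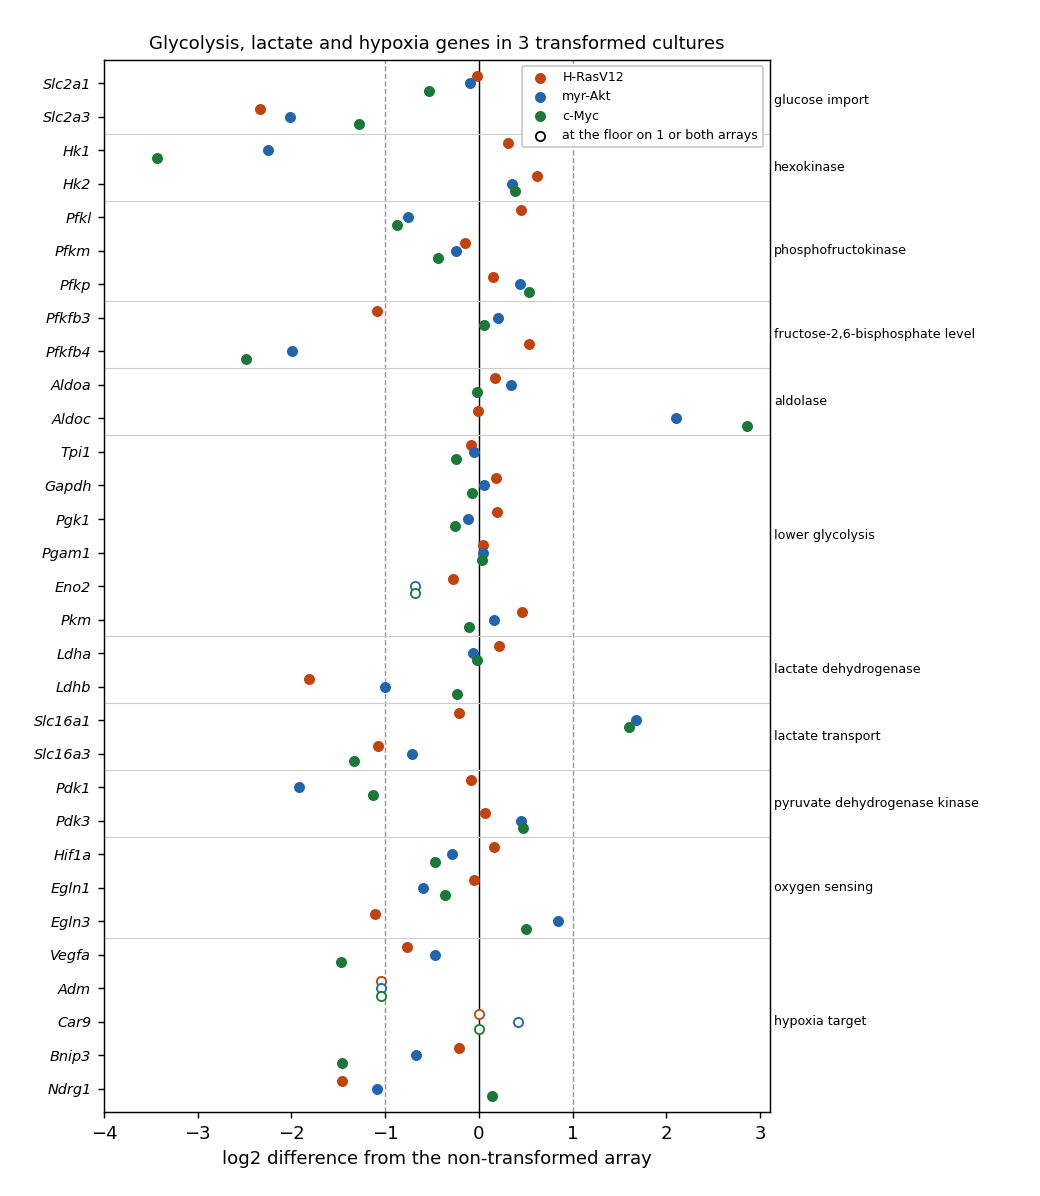
Log2 difference of each of the 31 members from the non-transformed array, on the horizontal axis, for the 3 transformed cultures (1 array each), grouped by role. Open points have a signal at the floor on 1 or both arrays, and dashed lines mark 2-fold; Hk1 and Pfkfb4 lie far to the left and Aldoc and Slc16a1 far to the right for myr-Akt and c-Myc, while the lower glycolytic enzymes other than Eno2 lie near 0.

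Promoter sequence is shown for 6 members with unlike patterns over the arrays (Hk2 higher and Bnip3 lower in all 3 transformed cultures, Ldha steady, Hk1, Pfkfb4 and Slc16a1 in both directions), so that their response elements can be read beside their values. RefSeq (GRCm38.p6) start sites were found for 29 of the 31 members, giving 41 windows because 9 members have several starts. Slc2a3 and Ndrg1 were not matched. In the 250 bases before each start, both strands were searched for ACGTG and GCGTG, the core letters of the HIF response element, and for CACGTG, the E-box bound by MYC. Each CACGTG holds an ACGTG on both strands. At least 1 core was present in 33 of 41 member windows (80.5%) and in 38.6% of 32851 windows of the same length over all genes, and CACGTG in 6 (14.6%) and 6.02%. The member windows had a median GC content of 60.4%, against 52.4%. The members were named for pathways known to respond to HIF-1 and MYC, so these shares are a description. In the sequences below, written 5′ to 3′ along the gene's strand and ending at the base before the start, capitals mark the cores and E-boxes on either strand.
Slc16a1 (chr3:104638414-104638663, + strand): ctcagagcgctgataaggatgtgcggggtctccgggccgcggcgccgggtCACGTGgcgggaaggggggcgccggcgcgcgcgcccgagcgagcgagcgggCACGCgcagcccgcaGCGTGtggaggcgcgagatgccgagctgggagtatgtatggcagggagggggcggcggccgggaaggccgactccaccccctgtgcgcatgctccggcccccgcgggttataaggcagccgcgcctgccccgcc
Ldha (chr7:46845554-46845803, + strand): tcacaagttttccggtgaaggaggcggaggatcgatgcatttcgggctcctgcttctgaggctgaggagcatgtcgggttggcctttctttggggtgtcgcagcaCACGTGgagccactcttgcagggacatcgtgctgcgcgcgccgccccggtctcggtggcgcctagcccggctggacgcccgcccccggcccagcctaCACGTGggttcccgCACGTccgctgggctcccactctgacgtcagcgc
Bnip3 (chr7:138909507-138909756, - strand): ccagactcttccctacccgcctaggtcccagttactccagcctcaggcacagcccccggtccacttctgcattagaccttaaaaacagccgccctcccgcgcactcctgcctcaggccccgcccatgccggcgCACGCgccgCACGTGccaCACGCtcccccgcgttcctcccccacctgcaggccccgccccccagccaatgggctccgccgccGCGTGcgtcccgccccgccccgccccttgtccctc
Hk1, upstream start (chr10:62379909-62380158, - strand): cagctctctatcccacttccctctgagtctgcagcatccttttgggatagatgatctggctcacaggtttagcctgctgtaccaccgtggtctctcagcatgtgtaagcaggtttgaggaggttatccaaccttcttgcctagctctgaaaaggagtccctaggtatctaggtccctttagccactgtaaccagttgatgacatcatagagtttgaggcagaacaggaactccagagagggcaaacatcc
Hk1, downstream start (chr10:62340422-62340671, - strand): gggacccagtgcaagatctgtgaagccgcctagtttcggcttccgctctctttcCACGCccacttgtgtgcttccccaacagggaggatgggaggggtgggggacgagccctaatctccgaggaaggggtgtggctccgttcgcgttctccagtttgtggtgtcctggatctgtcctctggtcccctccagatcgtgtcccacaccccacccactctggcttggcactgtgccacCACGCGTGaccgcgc
Hk2 (chr6:82774455-82774704, - strand): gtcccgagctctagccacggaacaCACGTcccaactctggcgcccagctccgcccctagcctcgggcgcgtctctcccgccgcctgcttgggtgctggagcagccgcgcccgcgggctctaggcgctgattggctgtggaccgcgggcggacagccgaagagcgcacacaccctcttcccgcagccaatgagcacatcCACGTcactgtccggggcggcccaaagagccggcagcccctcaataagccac
Pfkfb4 (chr9:108991652-108991901, + strand): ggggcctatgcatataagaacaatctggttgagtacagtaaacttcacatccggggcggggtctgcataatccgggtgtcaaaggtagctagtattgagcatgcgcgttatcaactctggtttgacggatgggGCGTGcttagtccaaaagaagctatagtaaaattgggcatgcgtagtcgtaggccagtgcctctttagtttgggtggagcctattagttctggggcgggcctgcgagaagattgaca
Windows of 6 members held the E-box, namely Bnip3, Hif1a, Ldha, Pfkfb3, Pfkm and Slc16a1. On the array labelled c-Myc, relative to non-transformed cells, their log2 differences were -1.46, -0.47, -0.02, 0.05, -0.44 and 1.60 in that order. The 3 E-box promoters printed thus belong to 1 gene that was higher there, 1 that was lower and 1 that differed little.

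Glucose enters through SLC2A1 (GLUT1), the widespread transporter, and SLC2A3 (GLUT3), a high-affinity form best known from neurons and embryonic cells. Slc2a3 gave signals of 4267 in non-transformed cells, 847.3 on the H-RasV12 array, 1057 on the myr-Akt array and 1753 on the array labelled c-Myc. All 3 transformed cultures thus lay below the non-transformed one, with H-RasV12 lowest. The signal was 5.04, 4.04 and 2.43 times lower, in that order. A second probe set gave 990.0, 170.7, 217.2 and 393.3, with the same order of arrays. Both probe sets are of the kinds (_s_at and _x_at) that can bind more than 1 transcript, and the other 2 were below the floor throughout. The difference for c-Myc was under 2-fold with median scaling (log2 -0.93) and with the mean over probe sets (-0.65). Slc2a1 had signals of 3464, 3424 and 3248 in non-transformed, H-RasV12 and myr-Akt cells and of 2394 on the array labelled c-Myc, a range of 1.45-fold.

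The first step is catalysed by hexokinases, of which HK1 is the widespread form and HK2 the inducible, insulin-responsive form. Hk1 gave signals of 1514 in non-transformed cells, 1883 on the H-RasV12 array, 319.1 on the myr-Akt array and 140.1 on the array labelled c-Myc. The myr-Akt and c-Myc-labelled arrays lay far below the other pair, at 4.74 and 10.8 times under non-transformed cells. The signal on the array labelled c-Myc was near the floor, which limits the size of that difference. Its second probe set read 256.0 and 349.9 in non-transformed and H-RasV12 cells and was under the floor on the others, where it was at least 2.56 times lower. Hk2 had signals of 2044, 3142, 2605 and 2667 in the same order, so it was 1.54, 1.27 and 1.30 times higher in the transformed cultures. The gap between the isoforms, taken as the difference of their log2 differences so that no probe set level is set against another, was 0.31 for H-RasV12, 2.60 for myr-Akt and 3.82 for the array labelled c-Myc. The Hk2 signal, as a ratio to non-transformed cells, thus exceeded that of Hk1 by 6.05-fold and 14.1-fold in the latter pair.

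Phosphofructokinase, the main control point of the pathway, is built from liver (Pfkl), muscle (Pfkm) and platelet (Pfkp) subunits. Pfkl gave signals of 712.9 in non-transformed cells, 969.8 on the H-RasV12 array, 420.7 on the myr-Akt array and 387.9 on the array labelled c-Myc. It was highest on the H-RasV12 array and 1.69 and 1.84 times lower than in non-transformed cells on the last pair, short of 2-fold. By its second probe set (640.1, 711.0, 389.6 and 243.6) the difference for c-Myc was 2.63-fold. Pfkp had signals of 860.9, 957.8, 1166 and 1250.3, so it was higher than in non-transformed cells on the last pair, where Pfkl was lower. Its other probe sets were under or near the floor. Pfkm went from 925.3 through 834.7 and 778.9 to 681.2. The gap of Pfkp over Pfkl was -0.29, 1.20 and 1.42 on the log2 scale for H-RasV12, myr-Akt and the array labelled c-Myc. With the mean over probe sets the latter pair of gaps was 0.74 and 0.97.

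PFKFB3 and PFKFB4 make and break fructose-2,6-bisphosphate, the strongest activator of phosphofructokinase; PFKFB3 acts almost wholly as the kinase. Pfkfb4, read by 1 probe set, gave signals of 622.3 in non-transformed cells, 898.6 on the H-RasV12 array, 155.8 on the myr-Akt array and 111.5 on the array labelled c-Myc. It followed the order of Hk1, at 1.44 times higher for H-RasV12 and 3.99 and 5.58 times lower for the others. Pfkfb3 had signals of 474.1, 222.4, 547.4 and 492.1, so H-RasV12 alone stood apart, at 2.13 times lower. That difference came to -0.83 where a pseudocount replaced the floor and to -0.55 with the mean over probe sets. The gap of Pfkfb3 over Pfkfb4 was -1.62 for H-RasV12 and 2.21 and 2.53 for myr-Akt and the array labelled c-Myc.

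Aldolase cleaves fructose-1,6-bisphosphate; ALDOA is the muscle and general form and ALDOC the brain form. Aldoc gave signals of 401.4 in non-transformed cells and 398.1 on the H-RasV12 array, but 1722 on the myr-Akt array and 2911 on the array labelled c-Myc. The last pair lay 4.29 and 7.25 times above non-transformed cells, the largest such differences upward among the members. Its other probe set was under the floor on all 4 arrays and adds no check. Aldoa, read by 5 probe sets, had signals of 13405, 15103, 17038 and 13165, a range of 1.29-fold. The gap of Aldoc over Aldoa was -0.18, 1.75 and 2.88 in the 3 comparisons, and 0.80 for myr-Akt with the mean over probe sets.

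**Figure D2:**
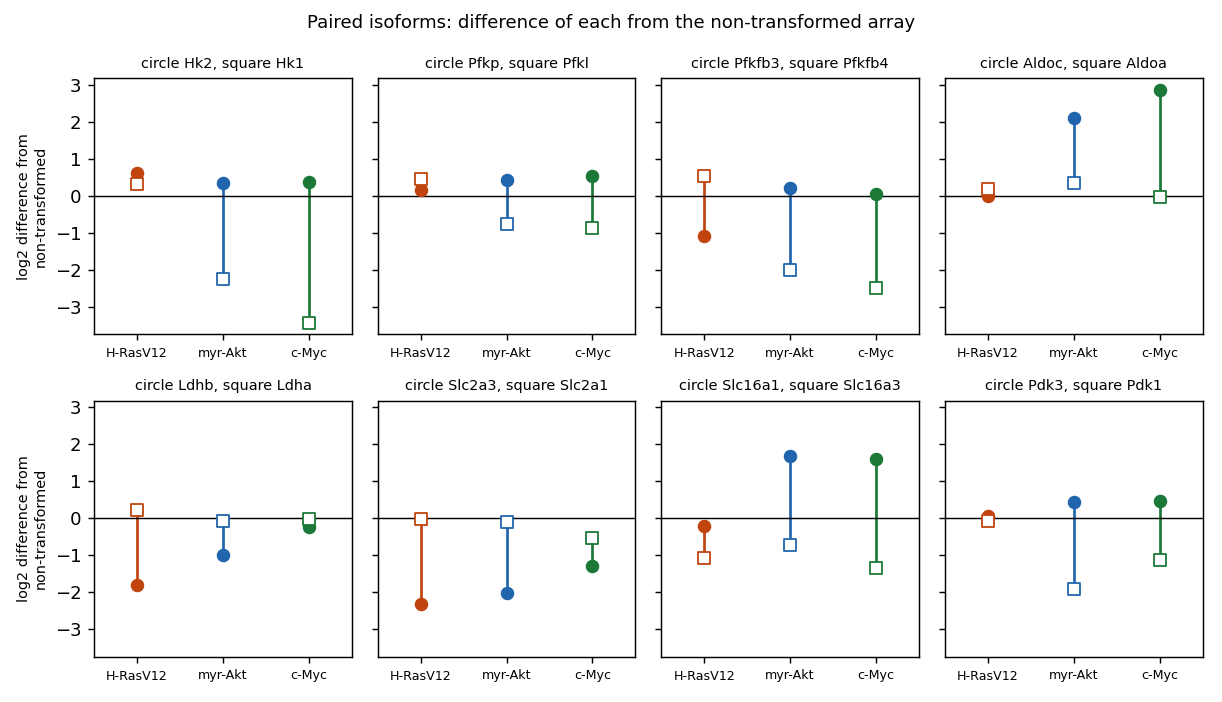
Log2 difference from the non-transformed array for 8 pairs of isoforms, with the first gene of each pair as a filled circle, the second as an open square and a line for the gap between them, 1 array per culture. The Hk2 and Hk1 symbols are 3.82 apart for c-Myc and 0.31 apart for H-RasV12, while the largest gap of Ldhb from Ldha, -2.03, is for H-RasV12.

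The lower enzymes, which carry 3-carbon sugars to pyruvate, gave some of the steadiest signals. Pgam1, phosphoglycerate mutase, had signals of 8993, 9283, 9241 and 9179.8 on the non-transformed, H-RasV12, myr-Akt and c-Myc-labelled arrays, a range of 1.03-fold. Ranges were 1.19-fold for Tpi1 (triose phosphate isomerase), 1.19-fold for Gapdh (glyceraldehyde-3-phosphate dehydrogenase), 1.36-fold for Pgk1 (phosphoglycerate kinase) and 1.48-fold for Pkm (pyruvate kinase). None of these reached 1.5-fold by the probe set standing for the gene. A dimmer Pgk1 probe set (9058, 9837, 10278 and 5993.5) was 1.51 times lower on the array labelled c-Myc than in non-transformed cells. Some small differences change sign between scalings, among them those of Tpi1, Pgk1 and Pkm for the array labelled c-Myc. Pkm was highest on the H-RasV12 array, at 13895 against 10143 in non-transformed cells. Its probe set does not separate the splice forms of pyruvate kinase. Eno2, the neuronal enolase, was near the floor, at 160.2 and 132.1 in non-transformed and H-RasV12 cells and under the floor on the other arrays.

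Lactate dehydrogenase is a tetramer of LDHA, which favours making lactate, and LDHB, which favours its oxidation. Ldha had signals of 15675, 18241, 15009.8 and 15444, a range of 1.22-fold. Ldhb gave signals of 3949.7 in non-transformed cells, 1124 on the H-RasV12 array, 1966 on the myr-Akt array and 3355 on the array labelled c-Myc. It was 3.51 times lower for H-RasV12, 2.01 times for myr-Akt and 1.18 times for c-Myc, where the sign turns with median scaling. Its other 3 probe sets were 3.21 to 4.66 times lower for H-RasV12, so that array was the lowest by all 4. The myr-Akt difference sat at the 2-fold line and was -0.69 with median scaling and -0.97 with a pseudocount. The gap of Ldhb from Ldha was -2.03 for H-RasV12, -0.94 for myr-Akt and -0.21 for the array labelled c-Myc.

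Lactate crosses the membrane through SLC16A1 (MCT1), a transporter of high affinity, and SLC16A3 (MCT4), an exporter induced by HIF-1. Slc16a1 gave signals of 3464 in non-transformed cells, 2995 on the H-RasV12 array, 11068 on the myr-Akt array and 10504 on the array labelled c-Myc. The last pair stood 3.20 and 3.03 times above non-transformed cells and the H-RasV12 array slightly below. A second probe set was under the floor on every array, and averaging it in gives log2 differences of 0.84 and 0.80. Slc16a3 was dim, with signals of 276.4, 131.0, 168.4 and 109.4, and lay below non-transformed cells in all 3 transformed cultures (2.11, 1.64 and 2.53 times). With the floor raised to 40% those for H-RasV12 and c-Myc were both bounded at -0.47. Emb, a chaperone that brings such transporters to the surface, was 3.61 times higher on the H-RasV12 array, at 4271 against 1182, and gave 1004.5 and 1111 on the others.

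Pyruvate dehydrogenase kinases switch off pyruvate dehydrogenase, and with it that use of pyruvate inside the mitochondria. Pdk1 gave signals of 765.5 in non-transformed cells, 723.6 on the H-RasV12 array, 202.2 on the myr-Akt array and 349.1 on the array labelled c-Myc. The myr-Akt array was lowest, 3.79 times under non-transformed cells, and the array labelled c-Myc lay 2.19 times under them. Its next brightest probe set (455.7, 353.5, 115.3 and 200.6) kept that order. For c-Myc the difference was -0.78 with median scaling, -0.95 with a pseudocount and -0.98 with the mean over probe sets. Pdk3 had signals of 1475, 1544, 2006 and 2039.7, a range of 1.38-fold. Pdk4, outside the named members, went from 1300.4 and 841.7 in non-transformed and H-RasV12 cells to below the floor on both other arrays, at least 13.0 times lower than in non-transformed cells.

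**Figure D3:**
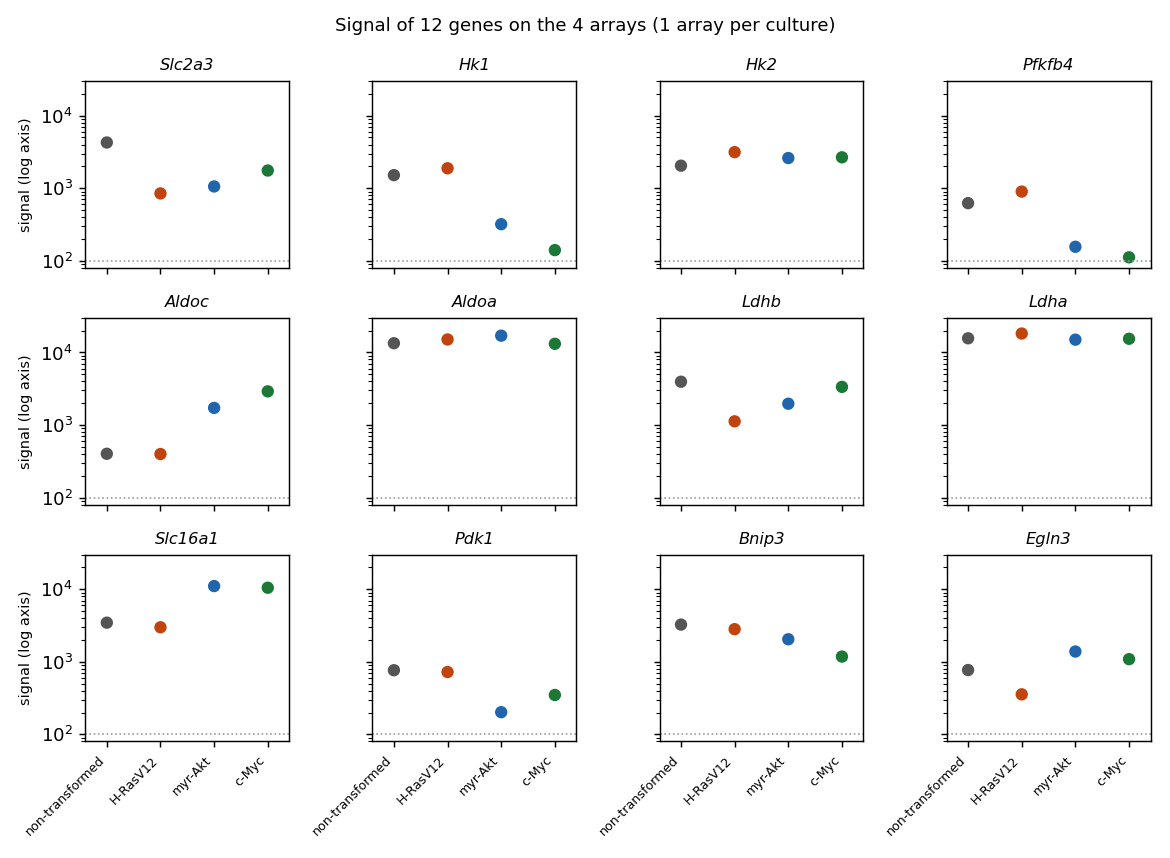
Signal of 12 members on each of the 4 arrays, on a log axis, with 1 point per array and a dotted line at the floor of 100.001. Hk1, Pfkfb4 and Pdk1 are low and Aldoc and Slc16a1 high on the myr-Akt array and the one labelled c-Myc, Slc2a3 is highest in non-transformed cells, Ldhb and Egln3 are lowest on the H-RasV12 array, and Aldoa and Ldha differ by less than 1.3-fold.

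Hif1a, the oxygen-regulated subunit of HIF-1, is controlled mainly as protein, which these arrays do not measure. Its signal was 9803 in non-transformed cells, 10948 on the H-RasV12 array, 8016 on the myr-Akt array and 7066 on the array labelled c-Myc, a range of 1.55-fold. The next brightest probe set had the same order and a wider spread (1224, 1755, 746.4 and 648.4). The lower value for myr-Akt, at log2 -0.29, changes sign with median scaling (0.02). Egln1, the main HIF hydroxylase, had signals of 1214, 1172, 804.1 and 947.3. Its second probe set (723.8, 803.2, 626.5 and 865.5) was also lowest for myr-Akt but highest on the array labelled c-Myc. Egln3, a hydroxylase that HIF-1 itself induces, gave signals of 771.0 in non-transformed cells, 356.4 on the H-RasV12 array, 1387 on the myr-Akt array and 1088 on the array labelled c-Myc. By this probe set it was lowest for H-RasV12 and highest for myr-Akt, 3.89 times apart. The second probe set (182.9, 92.3, 243.1 and 280.0) was also lowest for H-RasV12 but highest on the array labelled c-Myc. With median scaling the myr-Akt signal was past 2-fold over non-transformed cells, at log2 1.16. Against non-transformed cells the H-RasV12 difference was -1.11, and -0.87 by the second probe set.

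Of the hypoxia targets, Bnip3 and Vegfa were lowest on the array labelled c-Myc, Ndrg1 was lowest on the H-RasV12 array, and Adm and Car9 lay near or under the floor. Bnip3, a mitophagy receptor, gave signals of 3259 in non-transformed cells, 2819.6 on the H-RasV12 array, 2046 on the myr-Akt array and 1181 on the array labelled c-Myc. The array labelled c-Myc was lowest, at 2.76 times under non-transformed cells. Vegfa, which drives blood vessel growth, had signals of 1739, 1024, 1258 and 625.2, again lowest on the array labelled c-Myc, at 2.78 times. Its second probe set gave -0.94 there, just short of 2-fold.

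Ndrg1, a stress-responsive gene also induced by differentiation, gave signals of 737.3 in non-transformed cells, 268.5 on the H-RasV12 array, 345.7 on the myr-Akt array and 810.0 on the array labelled c-Myc. H-RasV12 and myr-Akt lay 2.75 and 2.13 times below non-transformed cells, and the array labelled c-Myc did not. For myr-Akt the difference was -0.78 with median scaling, -0.98 with quantile normalization and -0.84 with the mean over probe sets. Adm, which encodes the vasodilator adrenomedullin, was above the floor by its brightest probe set in non-transformed cells alone, at 206.4, and at least 2.06 times lower elsewhere. Its second probe set read 212.2 in non-transformed cells and 115.9 on the H-RasV12 array, a measured difference of 1.83-fold there, and was under the floor on the others. With the floor raised to 40% its difference was bounded at only -0.05. Car9, the hypoxia-induced surface carbonic anhydrase, was above the floor on the myr-Akt array alone, at 133.3, which bounds the difference at 1.33-fold or more. With the floor lowered to 10% its bound was past 2-fold, at log2 1.41.

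The myr-Akt array and the one labelled c-Myc can be compared without the shared non-transformed array. Between them 1 member was at least 2-fold higher for c-Myc and 2 were lower, 3.23% and 6.45% of the members, beside 2.01% and 1.53% of all measured genes. Ndrg1 was 2.34 times higher, Hk1 2.28 times lower and Vegfa 2.01 times lower on the array labelled c-Myc. Each missed 2-fold under at least 1 alternative, and median scaling left 1 higher and 1 lower. The median log2 difference of members was -0.13. Aldoc (1.69 times higher for c-Myc), Bnip3 (1.73 times lower), Pdk1 (1.73 times higher) and Ldhb (1.71 times higher) came next.

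**Figure D4:**
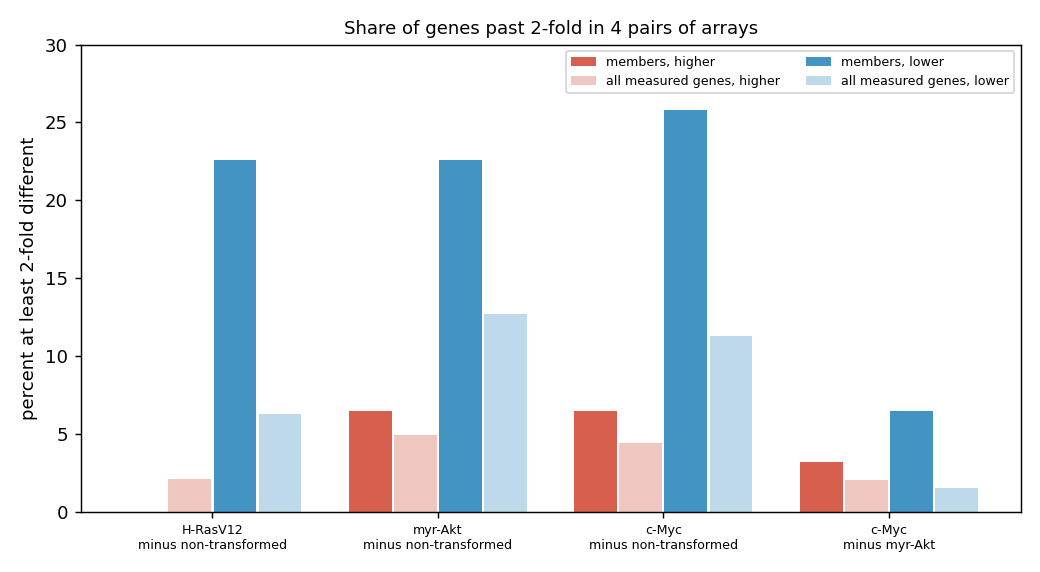
Percent of the 31 members (solid bars) and of all 10680 measured genes (pale bars) at least 2-fold higher or lower in 4 pairs of arrays, 1 array per culture. Lower members make up 22.6% for H-RasV12 and myr-Akt and 25.8% for c-Myc against non-transformed cells, and higher members 0%, 6.45% and 6.45%.

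Other genes of these pathways were taken from lists chosen for their known roles, but with earlier results of these data known. Their counts are to be read against all measured genes, of which 2.08% were higher and 6.27% lower for H-RasV12, 4.9% and 12.7% for myr-Akt, and 4.42% and 11.3% for the array labelled c-Myc. Of 10 measured glycolysis partners (24 with a single-gene probe set), 1 was at least 2-fold higher and 1 lower for H-RasV12, 0 and 3 for myr-Akt (1 and 2 with median scaling) and 0 and 2 for the array labelled c-Myc. Eno3, the muscle enolase, had signals of 1531, 2185, 546.2 and 599.5, the same division of arrays as Hk1. Slc2a10, a glucose transporter, was above the floor in non-transformed cells alone, at 230.6. None of the 3 measured gluconeogenesis genes of 7 differed by 2-fold from non-transformed cells on any array.

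A further list covers the entry of pyruvate to mitochondria and its use there, and holds Pdk4 and enzymes of aspartate and malate metabolism. Of its 18 measured genes, 0 were past 2-fold for H-RasV12. For myr-Akt 2 were higher and 2 lower, and for the array labelled c-Myc 1 and 1. The higher genes were thus 11.1% and 5.56% of the list, above the 4.9% and 4.42% of all measured genes. The lower genes made up the same shares of the list, under the 12.7% and 11.3% of all measured genes. With median scaling the counts were 6 higher and 1 lower for myr-Akt and 5 and 1 for the array labelled c-Myc, and quantile normalization gave 3 and 1 for myr-Akt. Under median scaling 12.2% and 13.2% of all measured genes were higher in these comparisons. The median log2 differences were 0.04, 0.51 and 0.34. Got1 and Me2, enzymes of aspartate and malate metabolism, were each 2.41 times higher for myr-Akt. Pcx, pyruvate carboxylase, was 2.03 times lower there, at 151.5 against 307.9. Pdp1, the phosphatase that reactivates pyruvate dehydrogenase, was 2.28 times higher on the array labelled c-Myc. Mpc1, part of the mitochondrial pyruvate carrier, was lowest on the H-RasV12 array, with signals of 1952.5, 1094, 2979 and 2678.

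Of 28 further hypoxia-responsive genes measured, 1 was at least 2-fold higher and 2 lower for H-RasV12, 1 and 5 for myr-Akt, and 2 and 5 for the array labelled c-Myc. As shares of the list these were 3.57% and 7.14%, 3.57% and 17.9%, and 7.14% and 17.9%, near those of all measured genes. The latter pairs of counts were 2 and 4, and 4 and 4, with median scaling. Lox, the collagen crosslinking enzyme, gave signals of 17628 in non-transformed cells and 4271, 4309 and 5664 in the transformed cultures, all at least 3.11 times lower. Plod1, a collagen hydroxylase, was 1.91, 2.67 and 3.02 times lower. Lox and Plod1 are also made by fibroblasts, whose summed marker signal was lower on the same 3 arrays. Single markers differed, with Vim and Thy1 higher on the H-RasV12 array and Dcn at 10469, 172.2, 9524 and 7765. The part of fibroblasts in the Lox and Plod1 values was not tested. Pgf, a VEGF-family ligand, was 2.51 times higher for H-RasV12 and at least 2.62 times lower on the others. Stc2, a secreted stress protein, was 2.67 and 3.36 times higher for myr-Akt and the array labelled c-Myc.

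Among 13 genes of the HIF machinery, 2 were at least 2-fold lower for H-RasV12, and 0 passed 2-fold in either direction for myr-Akt and the array labelled c-Myc. Siah1a, a ubiquitin ligase that acts on EGLN enzymes, had signals of 948.7, 419.4, 1491 and 1319, with H-RasV12 lowest, as for Egln3. Arnt2, a partner of HIF-alpha proteins, was at least 2.32 times lower on the H-RasV12 array. Among 12 glucose-sensing and energy regulators, 0 were higher and 2 lower for H-RasV12, 1 and 1 for myr-Akt and 3 and 1 for the array labelled c-Myc. For myr-Akt these were 3 and 1 with median scaling and 2 and 1 with quantile normalization. Txnip, which restrains glucose uptake, gave signals of 3187 in non-transformed cells and 1301, 671.2 and 754.7 in the transformed cultures.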

How the data were processed

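The authors deposited linear intensities, 1 per probe set; MAS5 is the tool that the submitters' processing notes name. The sources used here state no version, detection call or filter. Each array had been scaled, since the 2% trimmed mean was 500.003 on all 4. Signals were brought to a common trimmed mean, raised to a floor at 20% of it (100.001), and taken to log2. Of 45101 probe sets, 64 are controls, left out except where a gene had no other single-gene probe set (Gapdh). A 2-fold difference was counted among 10680 genes above the floor on at least 1 array. A gene at the floor on 1 array has a bound, written "at least". No test was possible with 1 array per group. The number of arrays limits the precision. All members were named, and from each other list up to 6 genes with the largest 2-fold differences. Members and lists were chosen with earlier results of these data known. Counting was tested on simulated data with differences well past 2-fold in bright genes. That setting does not cover dim genes or differences near 2-fold. Python 3.11.15, numpy 2.4.6 and pandas 2.3.3 were used.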

Additional observations from a re-analysis of the deposited data

How the results depend on the processing

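Each choice was changed in turn: the floor, a pseudocount, quantile or median scaling, the probe set, the dim-gene filter and the fold threshold. No called member and no isoform gap past 2-fold reversed. Over the 6 pairs of arrays, 349 recomputed differences of called members stayed past 2-fold and 65 did not. The numbers of lower members moved by over 1.5 times in these cases. For H-RasV12 (7 lower), there were 3 with a pseudocount, 4 with median scaling and 4 with the mean over probe sets. For myr-Akt (7 lower), there were 4 with median scaling and 12 at 1.5-fold. For c-Myc (8 lower), there were 5 with a pseudocount and 4 with median scaling. Higher members numbered 1 for H-RasV12 at 1.5-fold, and 1 for both myr-Akt and c-Myc with the mean over probe sets. Between c-Myc and myr-Akt, higher members (1) numbered 0 with the mean over probe sets, 0 without _s_at and _x_at probe sets and 5 at 1.5-fold. Lower members there (2) numbered 1 with a floor at 40%, 0 with a pseudocount, 1 with median scaling, 0 with the mean over probe sets and 4 at 1.5-fold. A second probe set at the floor pulls that mean toward 0 by construction; other causes were not tested. The count of members with a 2-fold range, and those of the other lists, were recomputed after the data were seen. The former lay between 12 and 19; of the recomputed list counts, 469 stayed within 1.5 times and 107 did not. No paired analysis was possible because each group holds 1 array, and leaving out a replicate was impossible for the same reason. Signal near the floor limits Adm, Car9, Eno2, Slc16a3 and Pfkfb4, and Hk1 on the array labelled c-Myc.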

Other observations

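Branches that leave glycolysis were counted in the same way. Of 7 measured pentose phosphate genes, 0 were past 2-fold for H-RasV12, 2 were higher and 1 lower for myr-Akt, and 1 and 1 for the array labelled c-Myc. For myr-Akt and the array labelled c-Myc, the higher genes were 28.6% and 14.3% of this short list. Of all measured genes, 4.9% and 4.42% were higher there. The single lower gene is 14.3% of the list, near the 12.7% and 11.3% of all measured genes that were lower on those arrays. Rpia, which makes ribose-5-phosphate for nucleotides, had signals of 822.8, 755.2, 3714 and 3198 on the non-transformed, H-RasV12, myr-Akt and c-Myc-labelled arrays, so 4.51 and 3.89 times higher on the last pair than in non-transformed cells. H6pd, the form of glucose-6-phosphate dehydrogenase in the endoplasmic reticulum, had signals of 3216, 3248, 874.8 and 1008, the opposite division. Pgd, the third enzyme of the branch, was highest on the myr-Akt array, at 9675 against 3940.5 in non-transformed cells.

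Of 14 measured genes of the glycogen, hexosamine and glycerol branches, 1 was at least 2-fold higher for H-RasV12, and 1 lower for both myr-Akt and the array labelled c-Myc (7.14% of the list each). With median scaling 2 were also higher for myr-Akt and 1 for the array labelled c-Myc, and with quantile normalization 1 for myr-Akt. All 3 main calls were of Gfpt2, an enzyme that opens the hexosamine branch. Its signals were 882.9 in non-transformed cells, 2721 on the H-RasV12 array, 209.1 on the myr-Akt array and 116.8 on the array labelled c-Myc. H-RasV12 and c-Myc thus lay 23.3 times apart. Ppargc1a, a coactivator of mitochondrial genes, was above the floor on 3 arrays and under it on the array labelled c-Myc, at least 3.49 times below myr-Akt, while its relative Ppargc1b had 145.2 and 134.4 in non-transformed and H-RasV12 cells and 908.5 and 956.9 on the other arrays.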
